A study of Mus musculus with 18 samples.

Results

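Semaphorins, plexins and neuropilins are the ligands, receptors and co-receptors of a guidance pathway, and their RNA was measured in microglia and astrocytes sorted from mouse brain. All rows with a symbol of the form Sema, Plxn or Nrp followed by the class and letter or number of a family member were taken, which gave 31 genes of 35869 (20 semaphorins, 9 plexins and 2 neuropilins). Of these, 20 reached 1 TPM in at least 4 of the 17 libraries used and are described here: 10 semaphorins, 8 plexins and both neuropilins. TPM expresses RNA as its part of all transcripts in a library, corrected for gene length, so levels of different genes may be compared. The 11 genes below that level are named at the end.

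All mice were C57BL/6, carried Cx3cr1CreERT2 and received tamoxifen at 180 mg/kg by oral gavage 5 times. Cx3cr1CreERT2 is a recombinase made by Cx3cr1-expressing cells, in brain microglia and other macrophages, and active only with tamoxifen. Control mice carried no other named allele, and knockout mice, called KO, also carried Tgfb1fl/fl, a loxP-flanked gene of transforming growth factor beta 1. The labels call the controls WT and give no age. Microglia were used from control animals 1, 2, 4 and 5 (n = 4) and KO animals 1 to 4 (n = 4), and astrocytes from control animals 1 to 5 (n = 5) and KO animals 1 to 4 (n = 4). Microglia and astrocytes with the same genotype and number came from the same animal. The series title places the question in whether TGF-beta1 made by microglia maintains microglia. Astrocytes do not normally express Cx3cr1.

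Semaphorins are secreted or membrane-bound proteins that steer the growth of axons, the movement of cells and the adhesion of immune cells. Plexins are their main receptors and act on small GTPases and the cytoskeleton. Neuropilins bind secreted class 3 semaphorins together with class A plexins and also bind forms of vascular endothelial growth factor. In the immune system several class 4 semaphorins act between macrophages, dendritic cells and T cells, and in the brain semaphorins from glia act on axons, vessels and oligodendrocyte precursors.

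Tgfb1 itself lay at 3.4, 2.9, 2.9 and 2.8 TPM in control microglia and at 1.8, 1.3, 1.7 and 2.0 TPM in KO microglia. The groups did not overlap, and Tgfb1 differed by -0.57 on the log2(TPM + 1) scale (SE 0.16, adjusted p = 0.0258 in limma). A value over the whole gene does not separate its loxP-flanked part from the rest. Microglia carried their markers at a summed 50433.2 to 53531.6 TPM in controls and 16949.3 to 18332.4 TPM in KO animals, over 10 of 10 markers, and 9 of the 10 fell. Astrocyte libraries carried 10 of 10 astrocyte markers at 22528.9 to 25896.9 TPM in controls and 16338.9 to 29143.1 TPM in KO animals. They also carried oligodendrocyte markers at 5024.6 to 18392.2 TPM and mural and fibroblast-like markers at 208.3 to 9677.7 TPM, so astrocyte values include RNA of other cells. Control animals 3, 4 and 5 carried Y-linked Ddx3y RNA, and control animals 1 and 2 and all KO animals carried Xist RNA. The read depth behind each TPM value is unknown. In these bulk samples fewer cells of a type and less RNA per cell cannot be told apart.

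**Figure D1:**
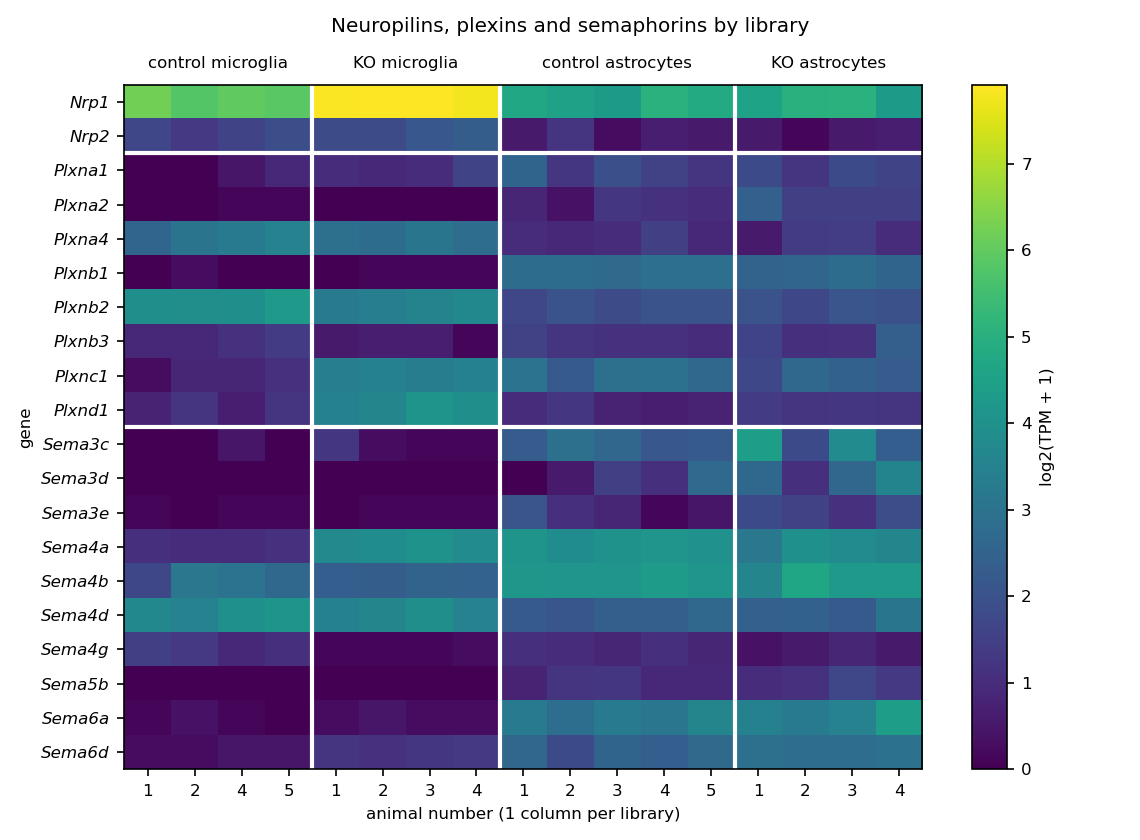
Heat map of the 20 described genes (rows) in the 17 libraries (columns, by group and animal number), coloured by log2(TPM + 1). Nrp1 was brightest in microglia, and Plxnc1, Plxnd1 and Sema4a were bright in KO microglia but dark in control microglia.

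In control animals microglia and astrocytes carried different receptors. Microglial plexin RNA was mainly Plxnb2, a class B plexin that binds class 4 semaphorins, and Plxna4, a class A plexin that signals for class 3 and class 6 semaphorins. Plxnb2 made up 58.0% ± 6.33 (SD, n = 4) of the summed TPM of the 9 plexins in control microglia and Plxna4 made up 28.9% ± 4.16. Astrocyte plexin RNA was spread over Plxnb1, a receptor of Sema4d, at 5.9, 6.0, 5.6, 6.4 and 6.4 TPM, Plxnc1 at 7.0, 3.7, 6.6, 6.8 and 5.4 TPM, and lower levels of the others. Plxnb1 reached at most 0.2 TPM in any microglial library of either genotype. All 5 astrocyte values of Plxnb1 therefore lay far above all microglial values. The antisense RNAs Gm26811, Plxna4os3 and Gm7628 share exonic bases with Plxna1, Plxna4 and Plxnb1, and the strand setting of the counting is not given in the sources used here. The shared part was 970 of 9054 exonic bases for Plxna1, 110 of 14103 for Plxna4 and 257 of 9592 for Plxnb1. Reads over these shared bases cannot be told apart if the counting ignored strand. On the same strand, Nrp1 shared 80 of 9785 exonic bases with Mir1903, Plxnc1 115 of 8349 with Gm48718 and Sema4a 73 of 5406 with Mir7011. A strand setting does not separate reads over those bases.

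Among control libraries 16 of the 20 genes were tested between cell types with limma, and 5 were higher and 8 lower in microglia at an adjusted p under 0.05. Of all genes tested in that comparison, 65.7% passed the threshold, 26.2% higher and 39.5% lower. A gene absent from microglia could enter this test only through its astrocyte level, so the counts are given as a description. The genes higher in microglia were Nrp1 (difference 1.27, SE 0.17), Nrp2 (0.97, SE 0.21), Plxna4 (2.04, SE 0.22), Plxnb2 (2.10, SE 0.15) and Sema4d (1.45, SE 0.17), with adjusted p between 4.89e-07 and 0.00192. Those lower in microglia were Plxna1 (-1.34, SE 0.31), Plxnb1 (-2.75, SE 0.14), Plxnc1 (-1.99, SE 0.23), Sema3c (-2.31, SE 0.20), Sema4a (-2.97, SE 0.13), Sema4b (-1.56, SE 0.26), Sema6a (-3.04, SE 0.18) and Sema6d (-2.03, SE 0.21), with adjusted p between 1.08e-08 and 0.00328. Plxnb3, Plxnd1 and Sema4g did not pass, with differences of -0.11, 0.07 and 0.23. These values depend on the scaling: quantile normalization moved the median of all genes by 0.27 in this comparison and the share of calls that were higher from 39.8% to 51.6%. Under it Plxnb3, Plxnd1 and Sema4g passed as higher in microglia, and Plxnb3 changed sign (0.47).

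Nrp1, the neuropilin of Sema3a and a co-receptor of vascular endothelial growth factor, had the highest RNA level of the 20 genes in each of the 4 groups. In control microglia it stood clear of the next gene, and in astrocytes its range overlapped that of Sema4b. Sema4d, a membrane-bound and shed ligand of Plxnb1, was the main semaphorin of control microglia at 11.9, 10.3, 14.6 and 15.9 TPM, against 3.7, 3.3, 4.3, 4.3 and 5.3 TPM in control astrocytes. The ligand thus lay higher in microglia and Plxnb1, a receptor of it, in astrocytes, without overlap for either gene. Plxnb2, which also binds class 4 semaphorins, averaged 15.3 TPM in control microglia and 2.8 TPM in control astrocytes. Control astrocytes carried mainly Sema4b at 17.22 ± 1.16 TPM (SD, n = 5) and Sema4a at 15.28 ± 1.19 TPM, followed by Sema6a, a transmembrane ligand of class A plexins, at 8.36 ± 1.75 TPM. Secreted class 3 semaphorins summed to between 5.1 and 9.7 TPM in control astrocytes and to at most 0.6 TPM in control microglia. Microglia of these libraries therefore carried class 3 receptors with hardly any class 3 ligand RNA of their own.

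In KO microglia members changed on the receptor and on the ligand side. Nrp1, Plxnc1 and Plxnd1 rose, the ligand Sema4a rose, Sema6d rose from a low level, and Plxnb2, the main plexin of control microglia, fell. Of the 20 genes 10 could be tested in microglia, and 5 were higher and 1 lower in limma. Of all 13054 genes tested there, 28.4% passed, 14.2% higher and 14.2% lower. Of the control libraries 1 reached 1 TPM for Plxnc1, 2 for Plxnd1 and 0 for Sema6d, so these genes passed the filter through the KO group, and no share of members is read from these counts. On GRCm38 in GENCODE M21 the 6 genes are protein-coding and lie at chr8:128358604-128503363 (Nrp1, plus strand), chr10:94790866-94944835 (Plxnc1, minus), chr6:115954811-115995005 (Plxnd1, minus), chr15:89155549-89180788 (Plxnb2, minus), chr3:88435959-88461182 (Sema4a, minus) and chr2:124089969-124667770 (Sema6d, plus).

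**Figure D2:**
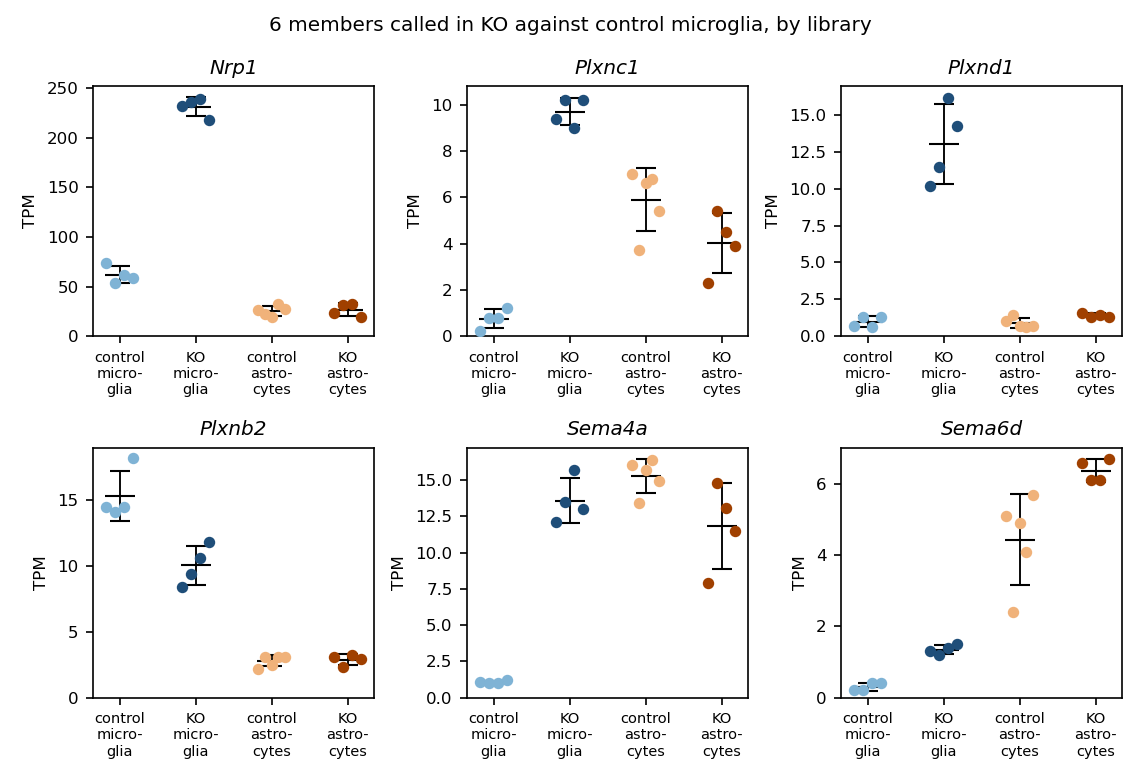
TPM of the 6 genes that passed the test between KO and control microglia, in the 4 groups. Each point is a library, and the bars give the mean and SD. Nrp1, Plxnc1, Plxnd1 and Sema4a were higher in every KO microglial library than in any control one, and Plxnb2 was lower.

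The stretches before the start sites of the 4 genes with the largest rises, and of Plxnb2, are printed to show the sequence these 5 genes carry there. They come from RefSeq promoter windows on GRCm38.p6, which held an entry for 17 of the 20 genes, cut to the 250 bases before the start so that they hold no exonic bases of their own gene. Capitals mark GAGGAA or its reverse TTCCTC, a core of the binding motif of PU.1, a factor that directs macrophage and microglial identity, and CAGAC or its reverse GTCTG, the half-site bound by SMAD proteins, which act downstream of TGF-beta receptors. Each line runs 5′ to 3′ on the gene's strand and ends at the base before the start. Where RefSeq gives several starts, the outermost was taken.
Nrp1: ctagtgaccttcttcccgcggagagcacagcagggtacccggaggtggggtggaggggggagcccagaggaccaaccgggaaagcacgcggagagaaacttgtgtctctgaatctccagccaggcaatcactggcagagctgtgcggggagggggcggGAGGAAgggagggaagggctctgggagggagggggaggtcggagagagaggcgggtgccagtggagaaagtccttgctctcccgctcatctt
Plxnc1: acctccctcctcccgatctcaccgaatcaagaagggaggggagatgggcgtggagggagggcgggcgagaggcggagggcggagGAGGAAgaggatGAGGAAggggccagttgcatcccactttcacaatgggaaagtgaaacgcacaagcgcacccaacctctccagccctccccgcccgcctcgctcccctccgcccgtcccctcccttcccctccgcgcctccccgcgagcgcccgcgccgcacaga
Plxnd1: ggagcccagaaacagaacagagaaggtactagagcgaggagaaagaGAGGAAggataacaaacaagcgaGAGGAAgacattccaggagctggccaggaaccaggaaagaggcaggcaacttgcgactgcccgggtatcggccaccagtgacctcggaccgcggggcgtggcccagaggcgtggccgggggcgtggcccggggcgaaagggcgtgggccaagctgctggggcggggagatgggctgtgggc
Sema4a: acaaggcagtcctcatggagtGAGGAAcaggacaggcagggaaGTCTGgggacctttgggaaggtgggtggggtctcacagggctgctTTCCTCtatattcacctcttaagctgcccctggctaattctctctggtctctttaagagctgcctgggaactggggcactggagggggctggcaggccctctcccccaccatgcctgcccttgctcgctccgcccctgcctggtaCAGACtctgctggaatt
Plxnb2: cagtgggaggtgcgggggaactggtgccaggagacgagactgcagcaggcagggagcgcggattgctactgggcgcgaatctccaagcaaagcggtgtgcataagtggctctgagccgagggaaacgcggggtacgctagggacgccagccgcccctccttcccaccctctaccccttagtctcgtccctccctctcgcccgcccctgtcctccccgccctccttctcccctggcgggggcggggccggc
The Nrp1 window is chr8:128358823-128359072 on the plus strand, and lies within the gene as GENCODE M21 draws it. The others are on the minus strand: Plxnc1 at chr10:94944846-94945095, Plxnd1 at chr6:115995006-115995255, Sema4a at chr3:88461183-88461432 and Plxnb2 at chr15:89180789-89181038. GAGGAA was found on either strand 1 time before Nrp1, 2 times before Plxnc1, 2 times before Plxnd1, 2 times before Sema4a and 0 times before Plxnb2. The other Sema4a starts, closer in, held it 0, 0 and 1 times, and the other Plxnb2 start 0 times. Sema6d, which also rose, held 0 at both of its starts. Sema4g and Plxnb3, whose TPM was lower in every KO than in every control microglial library, held 1 each. Of the 250 bases of their windows, 243 and 13 were exonic. Matches were not tested against the direction of change. The half-site CAGAC was found 2 times before Sema4a and 0 times before the other 4 genes in the windows printed. At the other starts it was found 1, 2 and 0 times for Sema4a and 1 time for Plxnb2, and for Sema6d 0 and 1 times. No match overlapped another in these windows. Of 32851 RefSeq windows of the same length, 23.3% held GAGGAA and 42.2% held CAGAC, so single matches are common, and a match here is a description of letters and not of a bound site. The motifs to show were chosen after their matches were seen. Motifs of AP-1 (TGANTCA) and STAT (TTCNNNGAA) factors were also searched, where N is any base, and had 0 matches in the windows printed. These windows held 59.6% to 69.2% G or C, against a median of 52.4% over all windows. The shares of all windows are thus not from windows of like makeup.

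Nrp1 lay at 73.9, 53.9, 61.4 and 58.2 TPM in control microglia and at 232.1, 236.5, 239.5 and 217.7 TPM in KO microglia. Every KO library lay far above every control library. The ratio of the mean TPM was 3.74, and the difference was 1.9 on the log2(TPM + 1) scale (SE 0.11, adjusted p = 1.69e-06 in limma). Its place among the genes that rose was 351 of 1857 by size of difference. Nrp2, the neuropilin that prefers Sema3f and vascular endothelial growth factor C, lay at 2.2, 1.5, 2.1 and 2.7 TPM in control and 2.5, 2.6, 3.4 and 4.0 TPM in KO microglia. These ranges overlapped, and the difference of 0.40 did not pass (95% interval -0.04 to 0.84, adjusted p = 0.170).

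Among the plexins, Plxnc1, the receptor of Sema7a, lay at 0.2, 0.8, 0.8 and 1.2 TPM in control microglia and at 9.4, 10.2, 9.0 and 10.2 TPM in KO microglia. The KO libraries were close to each other and all above the controls, and the difference was 2.64 (SE 0.21, adjusted p = 1.22e-05 in limma). Plxnd1, the receptor of Sema3e and of Sema4a, lay at 0.7, 1.3, 0.6 and 1.3 TPM in controls and at 10.2, 11.5, 16.2 and 14.3 TPM in KO microglia. Its groups were as far apart, with a difference of 2.83 (SE 0.21, adjusted p = 8.77e-06). In ratios of mean TPM these were 12.9-fold for Plxnc1 and 13.4-fold for Plxnd1, above the 3.74-fold of Nrp1. Of their named ligands, Sema7a was listed at 0 in all 8 microglial libraries, Sema3e reached at most 0.1 TPM there, and Sema4a is described below.

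Plxnb2 lay at 14.5, 14.1, 14.5 and 18.2 TPM in control microglia and at 8.4, 9.4, 10.6 and 11.8 TPM in KO microglia. All KO libraries lay below all controls, and Plxnb2 fell by 0.57 (SE 0.15, adjusted p = 0.0201 in limma). This call was lost without control library 5 (adjusted p = 0.0605), without KO library 1 (0.0683), without KO library 2 (0.0585) and against control animals 1 and 2 alone (0.112), and its adjusted p ranged from 0.00836 to 0.173 over 18 alternatives. Plxna4 lay at 5.0, 7.2, 8.8 and 10.4 TPM in control and 6.5, 6.0, 7.5 and 6.1 TPM in KO microglia, inside the control range. Its difference was -0.20 (95% interval -0.67 to 0.27, adjusted p = 0.542). Against control animals 4 and 5 alone it was -0.49 with adjusted p = 0.0643, and over 18 alternatives its adjusted p ranged from 0.0643 to 0.865.

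The make-up of plexin RNA differed between the genotypes. Plxnb2 made up between 53.2% and 67.1% of summed plexin TPM in control microglia and between 23.0% and 25.7% in KO microglia. Plxnd1 made up 2.25% to 5.28% in controls and 27.9% to 35.7% in KO microglia, and Plxnc1 0.926% to 3.51% and 19.8% to 26.0%. Plxnd1 was thus the most abundant plexin in each KO library, where Plxnb2 was in each control library. The sum itself lay between 21.6 and 34.2 TPM in control and between 36.5 and 46.0 TPM in KO microglia, so the groups did not overlap. The shares add to a whole, and a rise of some members lowers the share of the rest.

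**Figure D3:**
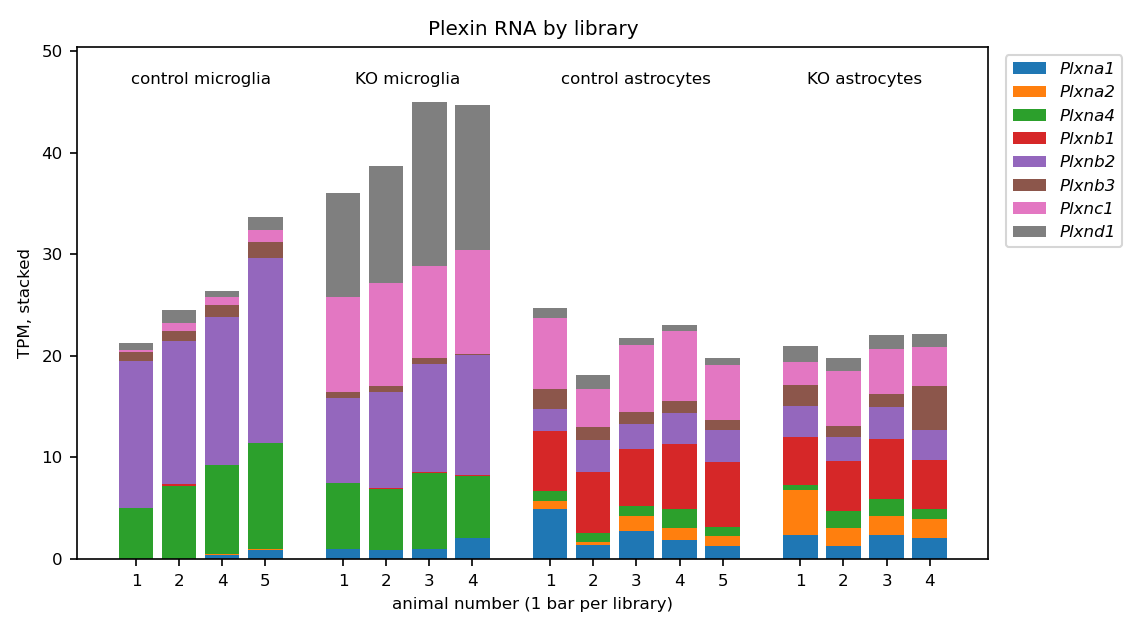
Stacked TPM of the 8 described plexins in each library (bars, by group and animal number). In KO microglia Plxnc1 and Plxnd1 stood beside Plxnb2 and Plxna4, and in astrocytes Plxnb1 and Plxnc1 were the largest parts in most libraries.

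Of the semaphorins, Sema4a, a class 4 ligand that acts on T cells and binds class B and D plexins, lay at 1.1, 1.0, 1.0 and 1.2 TPM in control microglia and at 12.1, 13.5, 15.7 and 13 TPM in KO microglia. The control values were nearly equal, and every KO value lay far above them. The ratio of means was 12.6, and the difference was 2.81 (SE 0.15, adjusted p = 1.22e-06 in limma). Sema6d, a transmembrane ligand of Plxna1 that is known from dendritic cells and the heart, lay at 0.2, 0.2, 0.4 and 0.4 TPM in controls and at 1.3, 1.2, 1.4 and 1.5 TPM in KO microglia. These groups did not overlap either, but both were close to 1 TPM, where the log2(TPM + 1) scale understates changes (0.86, SE 0.16, adjusted p = 0.00292). When any 1 of the 4 KO libraries was left out, Sema6d no longer reached 1 TPM in 4 libraries and was not tested.

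Sema4d, the main semaphorin of control microglia, lay at 10.2, 11.1, 14.4 and 10.4 TPM in KO microglia, within the control range except for the lowest. Its difference was -0.17 (95% interval -0.57 to 0.22, adjusted p = 0.525 in limma). Sema4b, another class 4 ligand, lay at 2.3, 7.7, 7.1 and 5.2 TPM in controls and 4.2, 4.0, 4.7 and 4.6 TPM in KO microglia. Control library 1 was the lowest of the 8, the KO values lay within the control range, and the difference was -0.20 (95% interval -0.85 to 0.45, adjusted p = 0.670). By mean level the order of semaphorins in control microglia was Sema4d, Sema4b, Sema4g and Sema4a, and of these neighbours only Sema4g and Sema4a overlapped. In KO microglia it was Sema4a, Sema4d and Sema4b, where Sema4a and Sema4d overlapped and Sema4b lay below both. Class 4 semaphorins summed to between 17.5 and 24.7 TPM in control and to between 27.1 and 35.6 TPM in KO microglia.

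Sema4g, a class 4 member of which less is known, lay at 1.8, 1.5, 0.9 and 1.1 TPM in control and at 0.1, 0.1, 0.1 and 0.2 TPM in KO microglia. All controls lay above all KO values, but only 3 libraries reached 1 TPM, so it was not tested between genotypes in microglia. With no filter on low values it had a difference of -1.03 (SE 0.15, adjusted p = 0.00189 in limma). Plxnb3, the receptor of Sema5a, lay at 0.9, 0.9, 1.2 and 1.6 TPM in control and 0.5, 0.6, 0.6 and 0.1 TPM in KO microglia, and the groups did not overlap. Plxna1, the receptor used by Sema6d in immune cells, lay at 0, 0, 0.4 and 0.9 TPM in control and 1.0, 0.9, 1.0 and 2.1 TPM in KO microglia, where 0.9 TPM was shared by both groups. With no filter these differed by -0.57 (adjusted p = 0.0812) and 0.79 (adjusted p = 0.0839). Sema3c reached 1.4 TPM in KO library 1 and at most 0.4 TPM in the other 7 microglial libraries. Plxna2, Plxnb1, Sema3d, Sema3e, Sema5b and Sema6a stayed at or below 0.4 TPM in every microglial library.

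The 4 large rises held against each kind of control. Against control animals 1 and 2, which like the KO animals carried Xist RNA, the differences were 1.86 for Nrp1, 2.86 for Plxnc1, 2.81 for Plxnd1 and 2.82 for Sema4a. Against control animals 4 and 5 they were 1.93, 2.43, 2.85 and 2.79 in the same order. Over 18 alternatives each of these calls was kept, and the highest adjusted p was 0.00225.

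Some markers of other macrophages and of other brain cells also differed between KO and control microglia, in both directions. Of 7 border-associated macrophage markers, each of which reached 1 TPM in a library of both groups, the sum was 369.4 to 706.7 TPM in control and 5391.1 to 6047.2 TPM in KO microglia, and 4 rose, 1 fell and 2 did not pass in limma. Mrc1 (108.2 ± 50.9 TPM in control and 1629 ± 252 TPM in KO microglia, SD, n = 4 each), Pf4, Ms4a7 and F13a1 rose and Cbr2 fell. Lyve1, a defining marker of such macrophages, lay at 4.4 to 75.1 TPM in control and 5.4 to 12.1 TPM in KO microglia, and Cd163 at 6.3 to 15.3 and 8.6 to 17 TPM, with overlap for both. Of 4 monocyte markers the sum was 6.0 to 11.3 TPM in control and 26.4 to 29.4 TPM in KO microglia, with Itga4 higher, Ccr2 lower and 1 listed at 0 in all KO libraries. The 10 astrocyte markers summed to 297.8 to 630.2 TPM in control and 77.3 to 92.3 TPM in KO microglia. Of these 5 were tested, and Slc1a3 fell, Aldh1l1 and Aldoc rose and 2 did not pass. The 8 neuron markers summed to 3.6 to 10.2 TPM in control and 12.3 to 55.0 TPM in KO microglia, and of 3 tested Stmn2 rose and 2 did not pass. All 10 oligodendrocyte markers were tested, and 0 rose, 1 fell and 9 did not pass. Of 7 endothelial markers 5 were tested, with 0 higher, 1 lower and 4 not passing. Of 12 mural and fibroblast-like markers 5 were tested, and all 5 did not pass. The part of other cells in the 4 large rises was not tested.

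**Figure D4:**
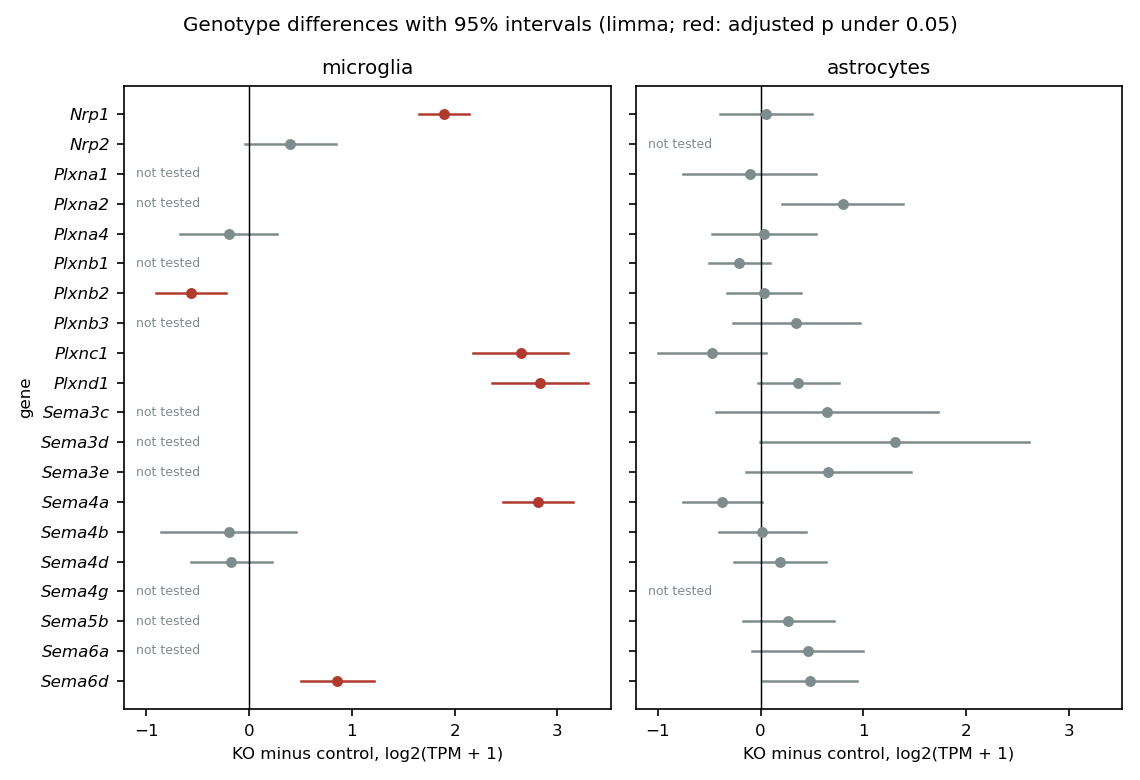
Differences between KO and control libraries on the log2(TPM + 1) scale for the 20 genes in microglia (left) and astrocytes (right), with 95% intervals from limma. Red marks an adjusted p under 0.05, which 6 genes had in microglia and 0 had in astrocytes.

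In astrocytes 18 of the 20 genes were tested between genotypes, and 0 passed in limma. Of all 15231 genes tested there 0.00657% passed, 0.00657% higher and 0% lower, which is 1 gene. Of the 18, Plxna2 and Sema6d had the lowest unadjusted p (0.0134 and 0.0430 in limma). The share of all genes with such p-values, or without overlap, is not given here, so neither gene is read as standing out. Plxna2, a receptor of Sema3a and class 6 semaphorins, lay at 0.8, 0.3, 1.4, 1.2 and 1.0 TPM in control and 4.4, 1.8, 1.8 and 1.8 TPM in KO astrocytes. Every KO value was above every control value, and the difference was 0.80 (SE 0.27, adjusted p = 0.328). Sema6d lay at 5.1, 2.4, 4.9, 4.1 and 5.7 TPM in control and 6.6, 6.1, 6.1 and 6.7 TPM in KO astrocytes, again without overlap, with a difference of 0.48 (SE 0.21, adjusted p = 0.383). The 4 genes that rose most in microglia had intervals near or across 0 in astrocytes: -0.39 to 0.50 for Nrp1, -1.0 to 0.06 for Plxnc1, -0.03 to 0.76 for Plxnd1 and -0.76 to 0.01 for Sema4a.

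Whether the genotype difference itself differed between the cell types was tested in 1 contrast over 17 libraries. This fit took 1 spread per gene for both cell types and treated microglia and astrocytes of the same animal as independent. Of all genes tested 15.5% passed, 6.63% with a more positive difference in microglia and 8.87% with a more negative one. Of the 20 genes 4 passed as more positive in microglia. A gene could enter this contrast through 1 group alone, so the count is a description. Sema4a led with 3.18 (SE 0.21, adjusted p = 3.31e-08 in limma), and Plxnc1 followed with 3.12 (SE 0.31, adjusted p = 2.62e-06). Plxnd1 had 2.46 (SE 0.25, adjusted p = 2.97e-06) and Nrp1 had 1.84 (SE 0.24, adjusted p = 4.60e-05). Sema4g passed as more negative in microglia with -0.66 (SE 0.21, adjusted p = 0.0375), but not with the animal as a block (adjusted p = 0.109), and over 25 alternatives its adjusted p ranged from 0.00931 to 0.109. It also missed the threshold, with adjusted p between 0.0504 and 0.0827, without control microglial library 1 or 2, without any 1 of the 4 KO microglial libraries, without control astrocyte library 3 or 5 and without KO astrocyte library 2, 3 or 4. Plxnb2 and Sema6d, called in microglia, did not pass as different between cell types (-0.60, adjusted p = 0.0541, range over alternatives 0.0243 to 0.212, and 0.38, adjusted p = 0.344, range 0.0253 to 0.942). With a pseudocount of 0.1 TPM the difference of Sema6d was 1.33 and passed (adjusted p = 0.0253).

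In KO animals the 2 cell types were nearer to each other for Sema4a than in controls. Sema4a lay at 12.1 to 15.7 TPM in KO microglia and at 7.9, 14.8, 13.1 and 11.5 TPM in KO astrocytes, so the ranges overlapped. The difference between KO cell types was 0.21 (95% interval -0.22 to 0.64, adjusted p = 0.344 in limma), against -2.97 in controls. Plxnc1, lower in microglia than in astrocytes in controls, was higher in microglia in KO animals at 9.0 to 10.2 TPM against 2.3, 5.4, 4.5 and 3.9 TPM (1.13, SE 0.21, adjusted p = 7.66e-04). Nrp1 lay at 23.0, 31.8, 32.3 and 19.0 TPM in KO astrocytes, and its difference between cell types was 3.11 in KO animals against 1.27 in controls. In this comparison, added after values were seen, 19 of the 20 genes were tested, 7 were higher and 10 lower in microglia, and 69.4% of all genes passed, 26.4% higher and 42.9% lower. A gene absent from microglia could enter only through its KO astrocyte level, so these counts too are a description. Without any 1 of the KO astrocyte libraries only 12 were tested. Median-of-ratios scaling and quantile normalization moved the median of all genes here by 0.15 and 0.34. Under the second Sema4a passed as higher in microglia and the share of calls that were higher went from 38.1% to 52.9%.

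Sema3c, Sema3d and Sema3e varied among the astrocyte libraries. Of these only Sema3c was highest in the 2 libraries with the highest sums of mural and fibroblast-like markers. Sema3c, a secreted ligand known from vessels, nerves and the heart, lay at 3.9, 6.5, 5.1, 3.4 and 3.7 TPM in control and at 20.2, 2.4, 13 and 4.1 TPM in KO astrocytes. KO libraries 1 and 3 stood above all others, and these had the highest sums of mural and fibroblast-like markers, at 6411.8 and 9677.7 TPM, while the other 7 astrocyte libraries lay at 208.3 to 3660.7 TPM. Their endothelial marker sums were also the highest, at 1444.4 and 794.2 TPM against 58.0 to 434.3 TPM. Within controls Sema3c did not follow the mural sum, with 6.5 TPM at the lowest sum and 3.4 TPM at the highest. The difference of Sema3c was 0.65 (95% interval -0.43 to 1.73, adjusted p = 0.577 in limma). Without these 2 libraries, left out after values were seen, it was -0.38 (adjusted p = 0.753, range over alternatives 0.228 to 0.867). They held the 2 highest Sema3c values, so leaving them out had to lower the difference, and nothing is read from that fit. Sema3d, another secreted ligand, was listed at 0 in all 8 microglial libraries. It lay at 0, 0.5, 1.8, 1.1 and 5.5 TPM in control and 5.2, 1.1, 5.1 and 10.9 TPM in KO astrocytes, and the ranges overlapped (1.30, 95% interval -0.01 to 2.61, adjusted p = 0.393). Sema3e, the ligand of Plxnd1, lay at 3.2, 1.1, 0.8, 0.1 and 0.4 TPM in control and 2.4, 1.9, 1.2 and 2.7 TPM in KO astrocytes, with overlap (0.66, adjusted p = 0.455). The part of mural, fibroblast-like and endothelial cells in these values was not tested.

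KO astrocyte library 4 stood apart for other members. Sema6a, also made by the oligodendrocyte lineage, lay at 8.4, 6.2, 8.6, 7.6 and 11.0 TPM in control and at 10.2, 8.6, 10.3 and 20.2 TPM in KO astrocytes. Only library 4 of the KO group exceeded the control range, and it also held the highest values of Plxnb3 (4.3 TPM, against at most 2.0 TPM in the other astrocyte libraries) and of Sema4d (7.4 TPM, against at most 5.3 TPM). Its 10 oligodendrocyte markers summed to 18392.2 TPM, against 5024.6 to 9500.0 TPM in the other 8 astrocyte libraries. The differences between genotypes were 0.46 for Sema6a, 0.35 for Plxnb3 and 0.19 for Sema4d and did not pass in limma (adjusted p = 0.447, 0.606 and 0.717). The part of oligodendrocytes in these values was not tested.

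**Figure D5:**
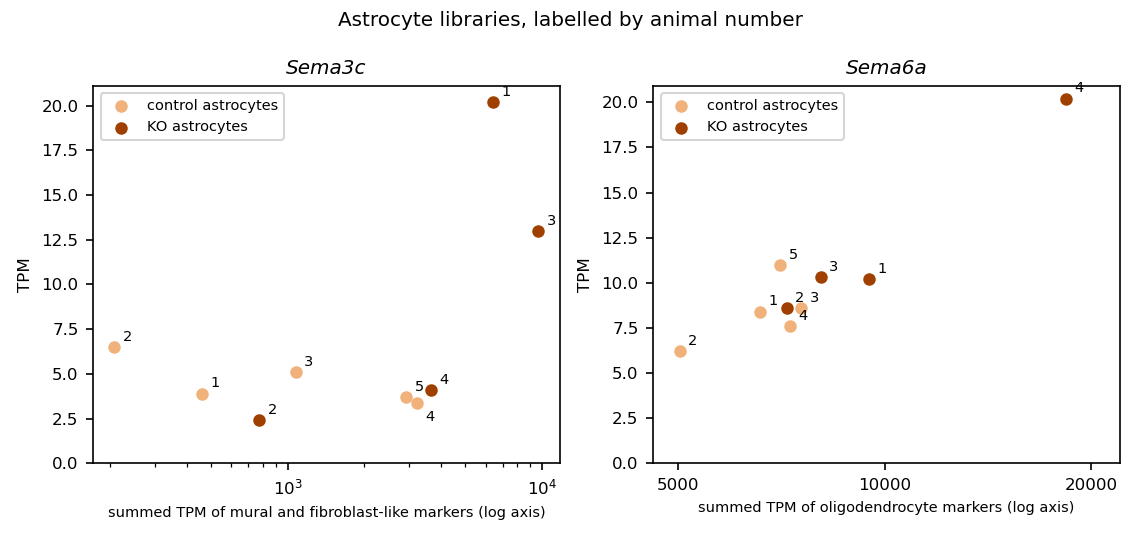
TPM of Sema3c against summed mural and fibroblast-like markers (left) and of Sema6a against summed oligodendrocyte markers (right) in the 9 astrocyte libraries, numbered by animal, with marker sums on log axes. KO libraries 1 and 3 lie apart for Sema3c, and KO library 4 for Sema6a.

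Of the remaining members in astrocytes, Plxnb1 lay at 4.7, 5.0, 5.9 and 4.9 TPM in KO astrocytes, of which 1 was inside the control range (-0.21, 95% interval -0.50 to 0.09, adjusted p = 0.518 in limma). Sema4b lay at 11.2, 24.1, 18.3 and 18.4 TPM in KO astrocytes against 16.3 to 19.2 TPM in controls, so that the KO group held both the lowest and the highest value (0.02, adjusted p = 0.979). Sema5b, a transmembrane ligand that repels retinal axons, was listed at 0 in all microglia and lay at 0.7 to 1.4 TPM in control and 1.0 to 2.2 TPM in KO astrocytes, which overlapped (0.27, adjusted p = 0.575). Plxna1 lay at 1.3 to 4.9 TPM in control and 1.3 to 2.4 TPM in KO astrocytes, Plxna4 at 0.9 to 1.8 and 0.5 to 1.7 TPM, and Plxnb2 at 2.2 to 3.1 and 2.3 to 3.2 TPM, with adjusted p of 0.901, 0.965 and 0.953. Nrp2 and Sema4g were not tested in astrocytes, at 0.2 to 1.3 and 0.1 to 0.6 TPM for Nrp2 and at 0.8 to 1.1 and 0.3 to 0.8 TPM for Sema4g in control and KO libraries.

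Other genes of the pathway were taken as 4 lists, whose counts in microglia stand beside the 28.4% of all genes that passed there. Of 16 co-receptors and other semaphorin receptors, 5 were tested, 1 rose and 1 fell. Cd72, a receptor of Sema4d on B cells and macrophages, rose from 5.53 ± 2.53 to 105.8 ± 12.8 TPM (SD, n = 4 each), with a difference of 4.09 (SE 0.23, adjusted p = 1.54e-06 in limma). Trem2, a lipid receptor of microglia that can join Plxna1, fell from 2330 ± 187 to 950.4 ± 25.7 TPM, with a difference of -1.29 (SE 0.08, adjusted p = 2.21e-06). Of 6 processing and shedding enzymes, 4 were tested, 0 rose and 3 fell. Adam10 and Mmp14, proteases that release membrane-bound ligands, fell by 1.49 (SE 0.21, adjusted p = 5.76e-04) and 1.45 (SE 0.30, adjusted p = 0.00512), and the third was Adam17. Of 30 intracellular effectors 22 were tested, 3 rose and 0 fell, and their median difference was -0.04. Gipc1, which binds the tail of Nrp1, rose by 0.59 (SE 0.13, adjusted p = 0.00823), and the other 2 were Rhod and Fyn, both under 5 TPM on average. Of 5 other neuropilin ligands 1 was tested and did not pass. In astrocytes 10, 5, 26 and 5 members of the receptor, enzyme, effector and ligand lists were tested and 0 passed.

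The 11 genes below the level were Plxna3, Sema3a, Sema3b, Sema3f, Sema3g, Sema4c, Sema4f, Sema5a, Sema6b, Sema6c and Sema7a. The described genes nearest the level, Sema3e, Sema4g and Sema5b, reached 1 TPM in 6 libraries each, and the nearest below it, Plxna3, Sema4c and Sema5a, in 2 each. Sema3f and Sema6c were listed at 0 in all 17 libraries. Sema3a, the best known ligand of Nrp1, did not reach 1 TPM in any library of either cell type.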

How the data were processed

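The authors deposited TPM values as 1 file per library with 1 decimal, scaled within each library, which leaves the depth behind a value unknown, so counting intervals are left out. Per the submitters' processing notes, Trim Galore 0.4.2, cutadapt 1.9.1, STAR 2.6.1e, featureCounts 1.6.2 and the build mm10 were used. Their roles, the annotation, the strand setting and the treatment of multiply mapping reads are not given in the sources used here. Of 18 libraries 1 was left out because its title names astrocytes, already held by another library of that animal, and its code ends like those of microglia.

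Each fit took log2(TPM + 1) of the genes that reached 1 TPM in 4 or more of its libraries. Tests were two-sided and used limma 3.58.1 (R 4.3.3), whose moderated variances followed a trend with level. Adjustment was by Benjamini-Hochberg over every gene in the fit, and 0.05 was the threshold. The test was checked on simulated data. Microglia and astrocytes came from the same animals per the labels, and their deviations from group means correlated between 0.0178 and 0.219. Members, lists and named genes were chosen with earlier results of these data known: all described members, Tgfb1, and per list up to 2 called rises and 2 falls by size, if the higher group averaged 5 TPM or more. Alternatives were other pseudocounts (0.1 and 5 TPM), dropping the filter or setting it at 5 TPM, 2 other scalings, 1 fit over all 17 libraries, a block, each kind of control alone and leaving out each library. The comparison of KO cell types and the fit without KO astrocyte libraries 1 and 3 were added after values were seen. Gene overlaps came from GENCODE M21. Tables used pandas 2.3.3 and numpy 2.4.6 under Python 3.11.15, and plots used matplotlib 3.10.9.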

Additional observations from a re-analysis of the deposited data

Results flagged for a closer look

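In 61 group-by-gene sets of described genes with a library of at least 1 TPM, 7 had a library far from the rest of its group. The rule is set to flag about 5% of groups of independent, normally distributed values. TPM with 1 decimal need not be so distributed and the genes share libraries, so the number flagged is not read against that rate. Plxna1 in KO microglial library 4 was at 2.1 TPM, against 0.9 to 1.0 TPM in the others, and Sema3c in KO microglial library 1 was at 1.4 TPM, against 0.1 to 0.2 TPM. Plxnb2 in control microglial library 5 was at 18.2 TPM, against 14.1 to 14.5 TPM. Plxna2 in KO astrocyte library 1 was at 4.4 TPM, where the other 3 were all at 1.8 TPM, and Sema6a in KO astrocyte library 4 was at 20.2 TPM, against 8.6 to 10.3 TPM. In control astrocyte library 4, Plxna4 was at 1.8 TPM, against 0.9 to 1.0 TPM, and Sema4b at 19.2 TPM, against 16.3 to 17.1 TPM.

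The KO effect differed between microglia and astrocytes for 5 of the 20 genes, by the contrast of the effects in limma: Nrp1 (1.84), Plxnc1 (3.12), Plxnd1 (2.46), Sema4a (3.18) and Sema4g (-0.66) on the log2(TPM + 1) scale. The first 4 kept this call in all 27 alternatives, and Sema4g in 10 of 25. Of all genes tested in that contrast, 15.5% passed. A gene could enter it through 1 group alone, so the count of 5 is a description.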

How the results depend on the processing

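The rises of Nrp1, Plxnc1, Plxnd1 and Sema4a in KO microglia kept their call under all 18 alternatives, and 0 of the 20 genes passed in astrocytes under any alternative run. In microglia the number of members that fell (1) became 2 with no filter and with 1 fit over all 17 libraries, was 0 against control animals 1 and 2, and lay between 0 and 1 without each library in turn. Control and KO animals with the same number are different mice, so the animal number pairs no samples between genotypes. The deviations of same-numbered microglia correlated at 0.0026 to 0.0232 and those of astrocytes at -0.0918 to 0.185. Microglia and astrocytes of the same animal correlated at 0.0178 to 0.219, which overlaps these ranges, so such correlations cannot show pairing. With the animal number as a replicate block 2079 genes passed in microglia (3711 without) and 0 members fell. Adjusted p in limma was then 0.173 for Plxnb2 and 0.0611 for Sema6d. In astrocytes the block gave 0 genes instead of 1. There, 3 genes passed with no filter, 88 in 1 fit over all libraries, 0 against control animals 1 and 2, 3 against control animals 3, 4 and 5, 0 without KO libraries 1 and 3, and 0 to 5 without each library in turn.

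In the contrast of cell types the 1 member with a more negative difference became 0 with the filter at 5 TPM, with the block, against control animals 1 and 2 and without KO astrocyte libraries 1 and 3, and 0 to 2 without each library in turn. Between control cell types the 8 lower members became 5 with the filter at 5 TPM, and the 5 higher ones became 8 with quantile normalization, where Plxnb3 changed sign (0.47). With control animals 1 and 2 alone, 3339 genes passed, 3 members higher and 2 lower, and with animals 3 to 5, 6063 genes and 3 members lower. Between KO cell types the 10 lower members became 3 with the filter at 5 TPM, 2 without KO astrocyte libraries 1 and 3, and 3 to 11 without each library in turn. These fits test fewer members, because 4 libraries at the minimum are still required. Between cell types within a genotype the animal as a block changed no call of members. With no read depth, values near 0.1 TPM cannot be ordered.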
